A study of Epimedium pubescens with 27 samples.

Results

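The leaf transcriptome of Epimedium pubescens under excess nitrate was compared with that under moderate nitrate at 48 days after treatment (DAT), the stage called S3. The comparison took the 3 HN libraries (22.5 mM nitrate, replicates A, B and C) and the 3 MN libraries (7.5 mM nitrate, replicates A, B and C) of that stage, 6 of the 27 libraries of the series, which were assigned to their groups by their labels. The other libraries were LN (0 mM nitrate) at the same stage and LN, MN and HN at 24 DAT (S1) and 36 DAT (S2), with 3 libraries in each group. All groups were leaves of greenhouse seedlings grown in pots of sand and perlite and watered with Hoagland solution before the nitrate levels were set. HN solution differed from MN solution in sodium as well as nitrate, because the extra nitrate was given as sodium nitrate, so the effects of the ions cannot be told apart. Older leaves of HN plants were necrotic at this stage by the description of the study, and the age of the leaves in each library and the number of plants behind it were not stated in the sources used here. The p-values therefore measure the spread between libraries, estimated over all 27 in the main fit, whatever plants lie behind them.

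Nitrate taken up by a plant is reduced to nitrite and then to ammonium, which glutamine synthetase and glutamate synthase join to carbon skeletons made by photosynthesis. The same carbon supplies starch in the chloroplast, sucrose for export, cell walls, and the phenylpropanoid and flavonoid pathway. Epimedium leaves are known for prenylated flavonol glycosides such as icariin, which are built from chalcones by chalcone synthase, chalcone isomerase, flavanone 3-hydroxylase and flavonol synthase before prenyltransferases, methyltransferases and glycosyltransferases act on them.

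The 6 libraries held 14219119 to 17003783 reads assigned to genes, within the 13609959 to 18482851 of all 27, and 38597 of the 58645 genes in the files had at least 1 count among them. Leaf markers (rubisco small subunit and activase, chlorophyll a-b binding proteins, chloroplast carbonic anhydrase) had 52 of 63 genes tested and summed to 35020 to 54210 CPM (counts scaled to the size of the library) in HN and 48410 to 54020 CPM in MN, with the lowest sum in HN replicate C. Of 8 root-type marker genes 7 had no count in the 6 libraries, and nicotianamine synthase, the remaining gene, ranged from 10.7 to 65.1 CPM with overlapping groups. The replicates were uneven. The biological coefficient of variation (BCV, the spread between libraries beyond counting noise) was 0.155 between HN replicates A and B, but 0.598 and 0.662 between either and replicate C, and 0.650 to 0.757 among the MN libraries. No 2 libraries of different groups in the series lay closer than 0.498. Replicates A and B of HN differed by more than counting noise, with a chi-square of 8.94 per gene, so they were not the same library deposited again. Separate plants, leaves of 1 plant and repeat libraries from 1 extract cannot be told apart from this, and if A and B share a plant the 3 HN libraries hold fewer than 3 independent samples and the p-values are too small.

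With the spread estimated over all 27 libraries, 263 of 22601 tested genes (1.16%) were called different between HN and MN at an adjusted p under 0.05 and a log2 fold change (log2FC) of at least 1 in either direction, by edgeR's quasi-likelihood test with Benjamini-Hochberg adjustment. Of these, 119 genes (0.527%) were higher in HN and 144 (0.637%) lower, and in 255 of the 263 the 3 HN values lay wholly to one side of the 3 MN values, against 6658 (29.5%) of all tested genes. That excess follows largely from the calling, which used the same values, and adds nothing to the calls. These calls rest on how the spread was estimated. The same edgeR test on the 6 libraries alone called 0 genes, with 4583 at an unadjusted p under 0.05. All 263 were under 0.05 unadjusted there and moved the same way, but both fits take the fold change from the same 6 libraries. DESeq2 on the 6 libraries called 2215 of 26611 genes (8.32%), 1372 higher (5.16%) and 843 lower (3.17%), 245 of the 263 among them in the same direction. With 7 close pairs of replicates in the series summed, HN A and B among them, the count was again 0. The smallest adjusted p was then 0.404, and 2236 genes had an unadjusted p under 0.05. In the 27-library fit the count was also 0 without HN replicate A, without HN replicate B or without MN replicate C, with 3007, 2952 and 3009 genes at an unadjusted p under 0.05, and it was 1277 without HN replicate C. Called genes are therefore described below with the values of each library, and groups of genes also by how many members had an unadjusted p under 0.05, a mark that 2356 (10.4%) of all tested genes reached on the higher side and 2219 (9.82%) on the lower side. The median log2FC of all tested genes was -0.01.

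**Figure D1:**
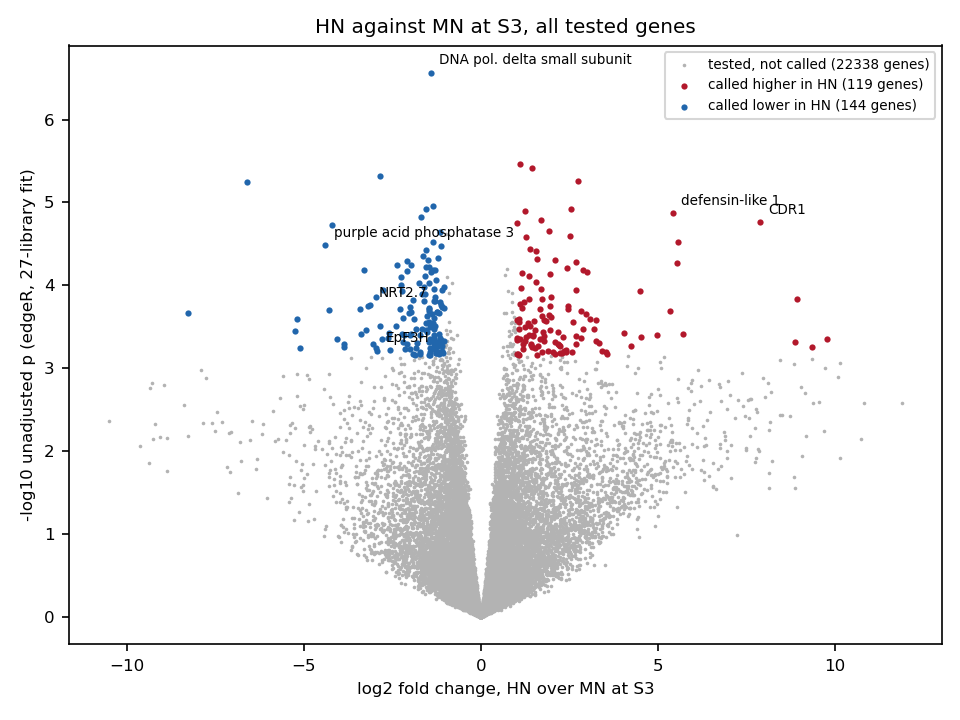
Each point is a gene tested between HN and MN at S3, placed by its log2FC (x axis) and by the -log10 of its unadjusted p in the 27-library edgeR fit (y axis). The 119 genes called higher in HN are red, the 144 called lower are blue, and 6 genes described in the text are named.

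The genes described first are the 10 of smallest p in each direction among called genes that had a protein match and HN and MN values that did not overlap, so the gap between their groups was a condition of the choice. Values are CPM after normalisation between libraries, in the order of replicates A, B and C. Ebr06G001260, matched to defensin-like protein 1, a small secreted antimicrobial peptide, had 29.5, 48.2 and 16.0 CPM in HN and 0.942, 0.806 and 0.420 CPM in MN. It rose by a log2FC of 5.42 ± 0.96 (SE, n = 3 per group, edgeR adjusted p = 0.0266). The gene lies on chromosome 6 from 11185603 to 11186293 on the minus strand of the genome used by the authors, whose build name was not given in the sources used here.

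Ebr04G018830, matched to the aspartic proteinase CDR1, an extracellular protease known from Arabidopsis disease resistance, had 110, 101 and 41.9 CPM in HN and 0.589, 0.336 and 0.120 CPM in MN. Its log2FC was 7.88 ± 1.42 (edgeR adjusted p = 0.0266), the largest of these 20 genes. The disease resistance protein Ebr05G020430 also rose, with 114, 93.1 and 48.3 CPM in HN and 12.7, 23.6 and 8.10 CPM in MN. Luminal-binding protein 4 (Ebr05G066270), an endoplasmic reticulum chaperone, had 125, 125 and 226 CPM in HN against 25.2, 30.9 and 14.6 CPM in MN, a log2FC of 2.75 ± 0.46 (edgeR adjusted p = 0.0216). Serine carboxypeptidase-like 29 (Ebr02G072950), a secreted peptidase, was more even, with 109, 106 and 79.4 CPM in HN and 43.7, 51.1 and 42.3 CPM in MN. Its log2FC was 1.10 ± 0.18 (edgeR adjusted p = 0.0216).

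The other genes of this group were DNA-DAMAGE INDUCIBLE 1 (Ebr03G002750, a ubiquitin receptor, log2FC 1.24), ferredoxin-3 (Ebr04G050260, an electron carrier of plastids, 1.71), hydroxyproline O-arabinosyltransferase 1 (Ebr02G069020, which decorates wall proteins, 1.04), TPLATE (Ebr0G002380, an endocytosis adaptor, 1.93) and GEM-like protein 1 (Ebr05G028740, 1.28). Their log2FC are given in brackets, and edgeR adjusted p-values ran from 0.0216 to 0.0283 over the 10 genes called higher. Bax inhibitor 1 (Ebr04G010530), a membrane protein that restrains cell death, was singled out after its values were seen. It had 218, 254 and 168 CPM in HN and 97.2, 108 and 93.5 CPM in MN, a log2FC of 1.10.

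Among the genes called lower, the smallest p of the comparison belonged to the DNA polymerase delta small subunit (an assembled locus), a replication enzyme. It had 12.2, 10.6 and 11.8 CPM in HN and 24.8, 29.2 and 37.7 CPM in MN, with HN libraries close to each other. It fell by a log2FC of -1.40 ± 0.19 (edgeR adjusted p = 0.00616). An IST1-like protein (Ebr04G058030), a membrane-remodelling protein of endosomes, fell from 40.3, 29.8 and 59.2 CPM in MN to 5.83, 6.57 and 5.52 CPM in HN, a log2FC of -2.85 ± 0.47.

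Purple acid phosphatase 3 (Ebr06G047170), a secreted phosphatase, showed the largest fall of these genes, with 103, 182 and 322 CPM in MN and 1.90, 6.24 and 20.7 CPM in HN. Its log2FC was -4.39 ± 0.83 (edgeR adjusted p = 0.0306), and the HN libraries differed among themselves with replicate C the highest. MYB32 (an assembled locus), a repressor of phenylpropanoid genes in Arabidopsis, had 3.71, 7.66 and 20.2 CPM in MN and 0.288, 0.460 and 0.940 CPM in HN, a log2FC of -4.21 ± 0.76. Argonaute 4 (an assembled locus), which guides DNA methylation by small RNAs, had a log2FC of -1.70, and a pair of pentatricopeptide repeat proteins (Ebr05G002690 and Ebr04G000710), RNA-processing factors of organelles, had -1.35 and -1.54. CAND1 (Ebr03G057970, an exchange factor of cullin ubiquitin ligases, -1.15), the chloroplast alarmone synthetase RSH1 (Ebr02G012180, -1.34) and FAD synthase (Ebr06G023200, -1.11) completed the list.

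**Figure D2:**
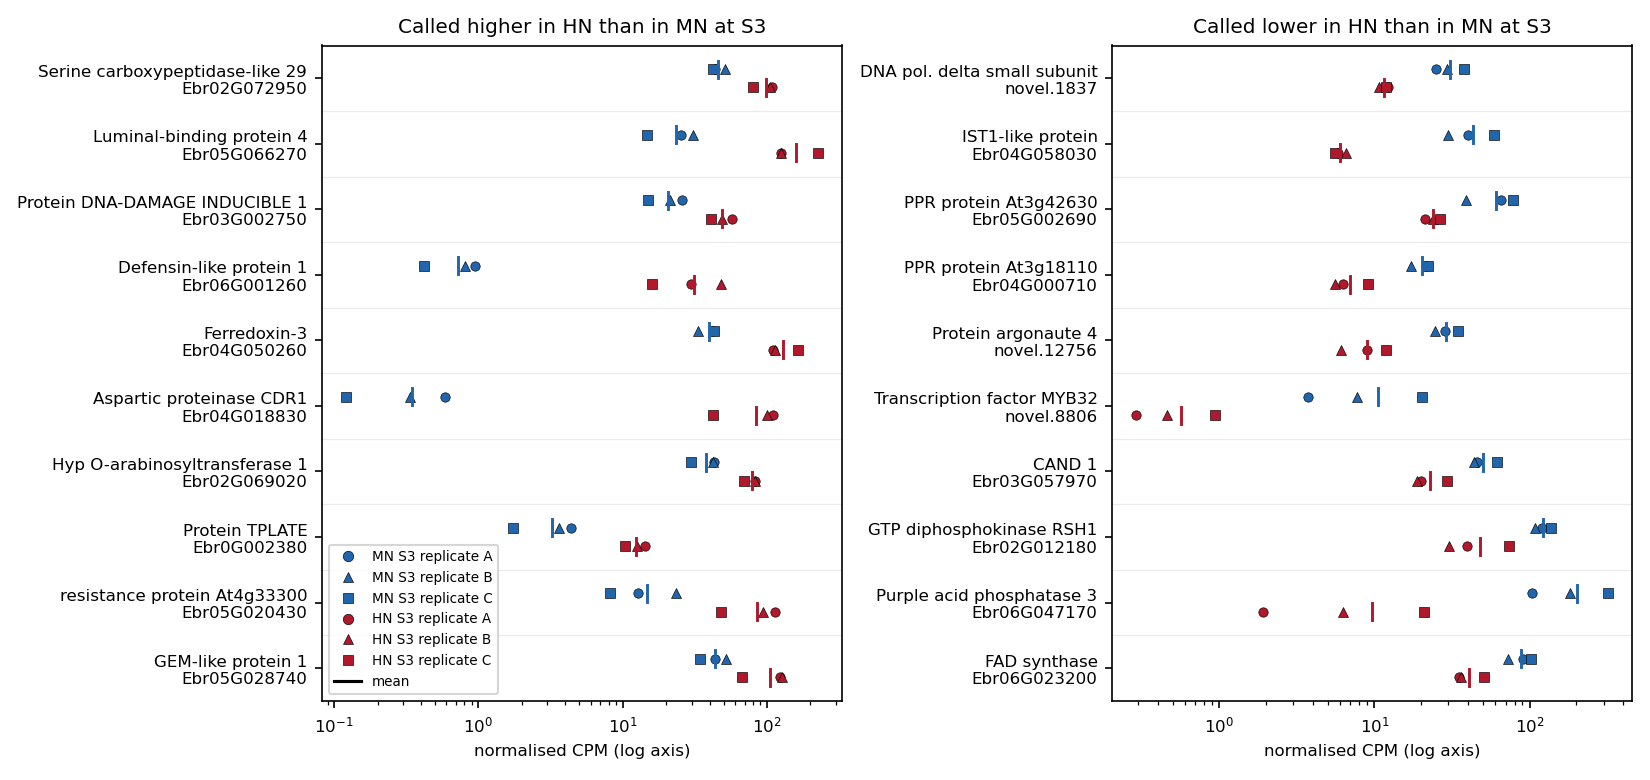
Normalised CPM (log axis) in each of the 3 HN (red) and 3 MN (blue) libraries at S3 for the 10 genes of smallest p called higher (left) and the 10 called lower (right) that have a protein match and groups that do not overlap (a condition of the choice), with replicates by symbol and the group mean as a bar. HN replicate C lies apart from A and B in several, for example at 41.9 CPM against 110 and 101 CPM in CDR1.

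A feature that no rule used was the predicted location of the proteins. Of the 144 genes called lower, 113 had a protein match, and in 34 of these (30.1%) the match was named as chloroplastic. The same word stood in 2 of 89 matched genes called higher (2.25%) and in 1571 of 15740 matched genes of all those tested (9.98%). This count was made after the genes were seen and was not tested. Loci assembled from reads, without an annotated gene, made up 25 of the genes called lower (17.4%), 16 of those called higher (13.4%) and 4190 of the 22601 tested.

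Genes of starch synthesis had mostly lower values in HN. Of 18 tested members 3 were called lower and 0 higher, 17 had a log2FC below 0, and 13 (72.2%) had an unadjusted p under 0.05 on the lower side, against 9.82% of all genes. Their median log2FC was -1.06, and it lay between -1.33 and -0.86 in every edgeR alternative. DESeq2 on the 6 libraries called 7 of them lower, against 3.17% of the genes it tested.

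Values were mostly lower in HN at each step of the pathway. Glucose-1-phosphate adenylyltransferase, the first committed enzyme, had 6 tested genes, all with a log2FC below 0 (-1.65 to -0.49), and none was called. Its large subunit gene Ebr01G023580 had 240, 237 and 278 CPM in HN and 419, 369 and 746 CPM in MN, and its small subunit gene Ebr06G059080 had 60.6, 55.3 and 81.8 CPM in HN and 148, 134 and 133 CPM in MN. In both, singled out after their values were seen, the groups were apart, with edgeR adjusted p-values of 0.0692 and 0.0719.

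Starch synthases, which elongate the glucan chains, numbered 7, all below 0 (-1.76 to -0.36). Granule-bound starch synthase 1 (Ebr04G020710), which makes amylose, had 268, 244 and 609 CPM in HN and 850, 994 and 1952 CPM in MN, with an edgeR adjusted p of 0.0594. Branching enzymes, which introduce the branch points of amylopectin, had 5 tested genes, 4 below 0 and 1 above, at a log2FC of 1.67. The 3 called genes were among them. Ebr02G036260 had 7.38, 7.03 and 9.46 CPM in HN and 22.7, 18.2 and 22.3 CPM in MN, a log2FC of -1.41 ± 0.28 (edgeR adjusted p = 0.0320). Ebr03G009320 had 6.403, 6.63 and 10.8 CPM in HN and 18.2, 16.7 and 36.5 CPM in MN, a log2FC of -1.58 ± 0.32 (edgeR adjusted p = 0.0321). Ebr01G064020, which the study names as an alpha-amylase of starch breakdown but the deposited protein match gives as a branching enzyme, was the most abundant, with 89.5, 87.0 and 154 CPM in HN and 245, 214 and 380 CPM in MN, a log2FC of -1.34 ± 0.33 (edgeR adjusted p = 0.0483). In all 3 genes HN replicate C was the highest HN library and stayed below every MN library.

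Starch breakdown was less uniform. Alpha-amylase 3 (an assembled locus), a chloroplast endoamylase, fell, with 84.7, 80.2 and 140 CPM in HN and 249, 213 and 286 CPM in MN and a log2FC of -1.30 ± 0.26 (edgeR adjusted p = 0.0320). It was the called gene among 16 breakdown genes other than beta-amylases, 6 of which (37.5%) had an unadjusted p under 0.05 on the lower side, with a median log2FC of -0.46. The 14 beta-amylase genes, whose products release maltose, had 0 called, 4 lower and 2 higher at an unadjusted p under 0.05, 1 higher and 2 lower by DESeq2, and a median of -0.44. The one of smallest p, beta-amylase 1 (Ebr06G015230), was on the higher side, with 180, 168 and 105 CPM in HN and 82.2, 61.7 and 55.2 CPM in MN (edgeR adjusted p = 0.0685).

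In the Calvin cycle, which fixes carbon dioxide, 2 of 25 tested genes were called lower and 0 higher, and 10 (40.0%) were lower and 1 higher at an unadjusted p under 0.05. The median log2FC was -0.60, with -0.73 to -0.51 over the edgeR alternatives. A rubisco activase gene (Ebr05G004900), whose product keeps rubisco active, had 18.3, 17.5 and 30.1 CPM in HN and 59.3, 42.3 and 68.6 CPM in MN, a log2FC of -1.37 ± 0.31 (edgeR adjusted p = 0.0414). The 4 rubisco activase genes ranged from -1.37 to 1.11, with 2 above and 2 below 0. Ribulose-phosphate 3-epimerase (Ebr06G032740), of the regeneration phase, had 345, 285 and 486 CPM in HN and 655, 727 and 1061 CPM in MN, a log2FC of -1.13 ± 0.27 (edgeR adjusted p = 0.0481). Sedoheptulose-1,7-bisphosphatase (Ebr01G044770) had an edgeR adjusted p of 0.0467 but a log2FC of -0.99, just short of the fold threshold, with 595, 579 and 823 CPM in HN and 1346, 1237 and 1393 CPM in MN. The 9 phosphoglycerate kinase genes lay between -0.68 and -0.16.

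The light-harvesting genes did not share this direction. The 44 chlorophyll a-b binding genes had 0 called, 1 higher and 1 lower at an unadjusted p under 0.05, and a median log2FC of 0.08 that turned to -0.10 without HN replicate B, while DESeq2 called 1 higher and 6 lower. The libraries differed more than the groups here, with HN replicate C at -0.64 and replicates A and B at 0.27 and 0.32 for the median member relative to the MN mean. Without HN replicate C the median of the 44 genes was 0.29, that of starch synthesis was -1.33, and 1277 genes were called in all. The part of its lower leaf marker sum in these shifts was not tested. The 51 genes of the photosystem cores and electron transport had 0 called by either tool, 0 higher and 2 lower at an unadjusted p under 0.05, and a median of -0.19. In a bulk leaf sample fewer cells of a type and less RNA per cell cannot be told apart.

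Among 27 chlorophyll synthesis genes 1 was called lower, the magnesium chelatase subunit ChlH (an assembled locus), the entry into the chlorophyll branch. It had 32.5, 32.4 and 49.8 CPM in HN and 70.6, 156 and 309 CPM in MN, a log2FC of -2.22 ± 0.53 (edgeR adjusted p = 0.0467), with MN values that spread widely. Protoporphyrinogen oxidase 2 (Ebr03G067370), a step before it, was also called lower at -1.29, and PALE CRESS (Ebr01G000610), needed for chloroplast development in Arabidopsis, at -1.13, and both were singled out after their values were seen. The 12 chlorophyll breakdown and senescence genes had 0 called, 0 higher and 2 lower at an unadjusted p under 0.05, and 0 called by DESeq2.

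Sucrose-phosphate synthase 4 (Ebr04G055270), of sucrose synthesis, fell, with 39.6, 49.3 and 212 CPM in HN and 356, 288 and 574 CPM in MN (log2FC -2.02 ± 0.45, edgeR adjusted p = 0.0412), and HN replicate C lay close to the MN range. It was the 1 called gene of 36 in sucrose metabolism, of which 5 were higher and 6 lower at an unadjusted p under 0.05 and 5 higher and 2 lower by DESeq2, with a median of 0.13. The sugar transporter ERD6-like 8 (an assembled locus), a tonoplast exporter family, had 3.35, 2.43 and 9.75 CPM in HN and 19.8, 23.7 and 22.7 CPM in MN (log2FC -2.09), the 1 called of 47 sugar transporters. Of these, 10 (21.3%) were lower and 3 higher at an unadjusted p under 0.05, DESeq2 called 7 lower and 2 higher, and the median was -0.27. Chloroplast phosphoglucomutase (Ebr05G052930), which feeds starch synthesis, was called lower at -1.45, but its MN replicate B (61.5 CPM) lay below HN replicate C (62.4 CPM). Fructokinase-2 (Ebr02G031250) was not called by edgeR, with 443, 436 and 273 CPM in HN and 102, 243 and 117 CPM in MN and an edgeR adjusted p of 0.281. Its DESeq2 adjusted p was 0.0370.

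**Figure D3:**
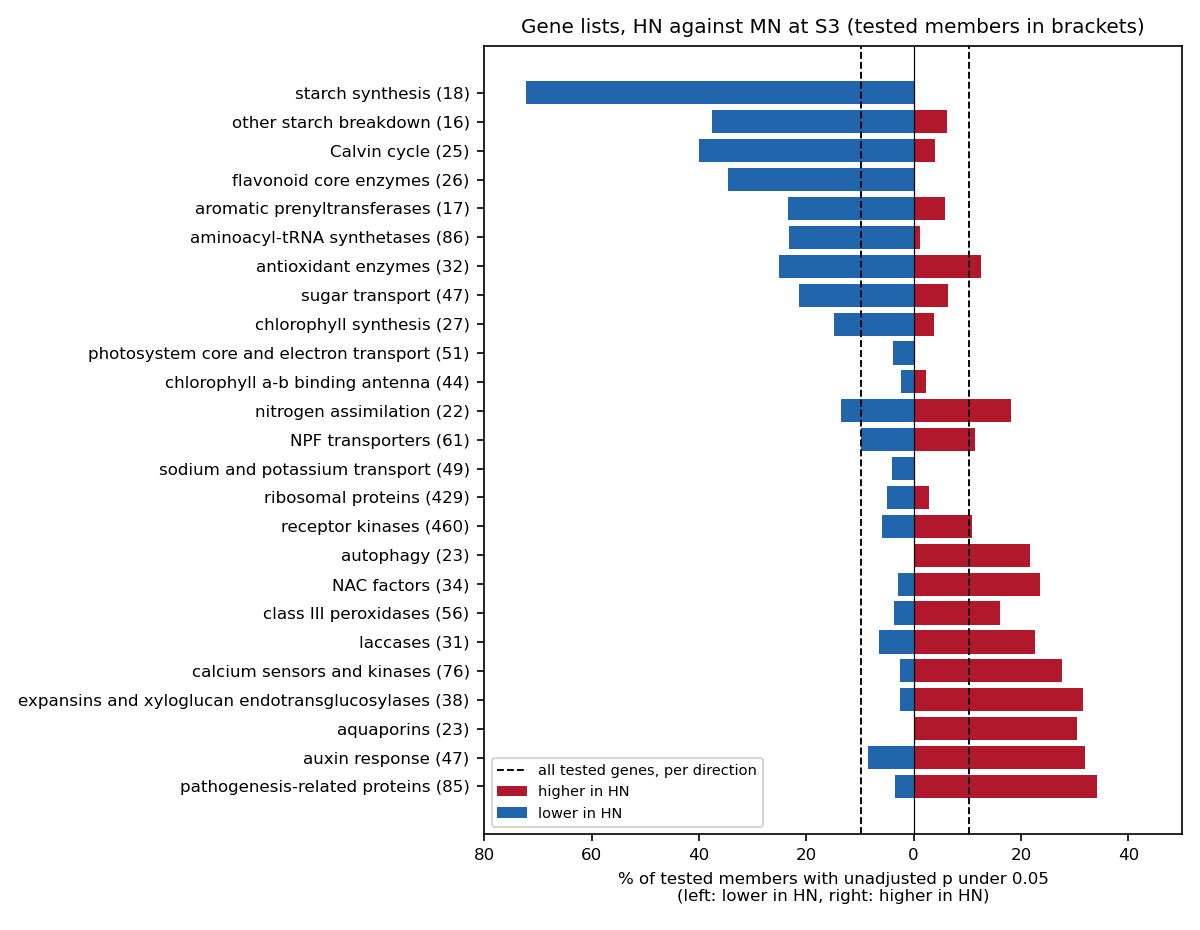
For 25 gene lists, the bars give the percentage of tested members with an unadjusted p under 0.05 in the 27-library edgeR fit, to the left for lower in HN and to the right for higher in HN, with the number of tested members in brackets. The dashed lines mark all tested genes (9.82% lower, 10.4% higher), which starch synthesis (72.2% lower) and pathogenesis-related proteins (34.1% higher) pass most widely among the lists drawn.

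Flavonoid genes tended lower in HN, on values that depended much on MN replicate B. Of 26 tested core enzyme genes 1 was called lower and 0 higher, 22 had a log2FC below 0, and 9 (34.6%) were lower at an unadjusted p under 0.05. The median log2FC was -1.18, and it was -0.65 without MN replicate B and -1.77 without HN replicate C. DESeq2 called 4 lower and 0 higher.

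The study designed primers for 10 genes of this pathway that it selected from this same comparison, so their direction here is not independent evidence. The primer pairs of the called gene, a flavanone 3-hydroxylase named EpF3H, and of chalcone synthase and flavonol synthase genes that act before and after it in the pathway are shown to fix which transcripts are meant, forward and reverse, each 5′ to 3′.
EpF3H forward: ctttcttcccaccagtcata
EpF3H reverse: gagttgatacggatctcattac
EpCHS2 forward: gacttcctcctcatctcatc
EpCHS2 reverse: ccattcttgaccaggttga
EpCHS5 forward: cggaagtagtacagaatacaag
EpCHS5 reverse: gcgagacaagatatggtagt
EpFLS3 forward: tggaagcgatcaagaacc
EpFLS3 reverse: aggaggacgagcatacaa

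EpF3H (Ebr04G062950, chromosome 4, 491866998 to 491869608, minus strand), which turns flavanones into dihydroflavonols, had 71.3, 85.3 and 159 CPM in HN and 291, 1459 and 636 CPM in MN. The groups did not overlap, and MN replicate B stood far above the others. Its log2FC was -2.92 ± 0.72 (edgeR adjusted p = 0.0497), and -2.14 without MN replicate B, where it was no longer called.

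The chalcone synthases, which make the first flavonoid skeleton, numbered 5 and all lay below 0 (-3.46 to -0.82), with none called. EpCHS2 (Ebr05G049130, chromosome 5, 367794769 to 367796320, plus strand) had 37.4, 50.4 and 132 CPM in HN and 121, 1211 and 286 CPM in MN. EpCHS5 (Ebr03G073940, chromosome 3, 611383471 to 611384976, minus strand) had 5.13, 8.47 and 20.97 CPM in HN and 12.4, 310 and 57.8 CPM in MN. In both the highest HN library, replicate C, lay above the lowest MN library, replicate A, and edgeR adjusted p-values were 0.0873 and 0.0811. DESeq2 on the 6 libraries gave adjusted p-values of 0.00741 and 0.00648. Without MN replicate B the log2FC of EpCHS2 was -1.48 in place of -2.88.

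EpFLS3 (Ebr04G051790, chromosome 4, 405527936 to 405530814, plus strand), which makes flavonols, had 79.6, 81.8 and 129 CPM in HN and 117, 813 and 279 CPM in MN, again with an overlap between HN replicate C and MN replicate A (edgeR adjusted p = 0.0966). Of the 12 hydroxylases of the flavonoid B ring, 10 had a log2FC below 0 and 4 were lower at an unadjusted p under 0.05. EpF3'5'H1 (Ebr01G061940) had 20.5, 239 and 1.56 CPM in MN, a range that held all its HN values of 6.69, 7.55 and 11.45 CPM. Phenylalanine ammonia-lyase EpPAL2 (Ebr04G040710), at the entry to the phenylpropanoids, had 5.65, 2.89 and 7.75 CPM in HN and 11.7, 72.5 and 19.5 CPM in MN (edgeR adjusted p = 0.0989). DESeq2 adjusted p-values were 0.0231 for EpFLS3, 0.162 for EpF3'5'H1 and 0.00566 for EpPAL2. The 15 entry genes together had a median log2FC of 0.02, 0 called, 3 lower and 0 higher at an unadjusted p under 0.05, and 2 called lower by DESeq2.

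Prenyltransferases act downstream of the flavonols, but the keyword list for them was mixed. Its 17 tested genes had 0 called and a median log2FC of -1.07 that was -0.22 without MN replicate A. At an unadjusted p under 0.05, 4 were lower and 1 higher, and DESeq2 called 2 lower. The keyword that drew this list also took 3 tRNA-modifying prenyl transferase genes, which act on tRNA and not on flavonoids. Their median was also -1.07, so the list median is not particular to flavonoid prenylation. The 4 naringenin 8-prenyl transferase genes, of the type that prenylates flavonoids, lay between -1.64 and -1.11. One of them, EpPT8 (Ebr02G069700), had 63.6, 69.7 and 140 CPM in HN and 109, 474 and 265 CPM in MN (edgeR adjusted p = 0.0966, DESeq2 adjusted p = 0.0495). EpPT5 (Ebr02G069310) had 93.5, 6.72 and 33.2 CPM in MN and 3.35, 3.81 and 11.6 CPM in HN, so that here MN replicate B was the lowest MN library.

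Glycosyltransferases finish the icariin-type compounds. Of 110 tested UDP-glycosyltransferase genes 2 were called lower and 0 higher, with a median of -0.24 that turned to 0.02 without MN replicate B. At an unadjusted p under 0.05, 6 were higher and 14 lower, and DESeq2 called 8 higher and 9 lower. The called genes were the flavonol 3-O-glucosyltransferase F3GT2 (Ebr01G051100), with 2.31, 2.76 and 6.17 CPM in HN and 10.4, 13.0 and 21.3 CPM in MN (log2FC -1.99 ± 0.47), and UDP-glycosyltransferase 89B2 (Ebr02G038420, log2FC -1.26). EpUGT16_A (Ebr06G040830) had 60.97, 57.9 and 79.2 CPM in HN and 83.2, 856 and 429 CPM in MN and missed the threshold with an edgeR adjusted p of 0.0511. EpUGT13_A (Ebr06G044210) had an edgeR adjusted p of 0.204. DESeq2 adjusted p-values were 0.00199 for EpUGT16_A and 0.176 for EpUGT13_A. Of 3 other glycosyltransferases named by the study, Ebr06G045440 (log2FC -5.10) and Ebr06G044660 (-4.28) were not called by edgeR. Their groups were apart, edgeR adjusted p-values were 0.0802 and 0.0614, and DESeq2 on the 6 libraries gave 1.28e-06 and 0.00011. Ebr06G044290 had at most 0.197 CPM in HN and 0.294, 32.8 and 29.0 CPM in MN. It was not tested because too few libraries passed the filter, MN replicate A being low.

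Regulators of the pathway were low in all libraries. MYB12 (Ebr01G065030), an activator of flavonol genes in Arabidopsis, had 0.634, 0.197 and 0.998 CPM in HN and 1.53, 6.99 and 9.12 CPM in MN, which did not overlap (edgeR adjusted p = 0.177, DESeq2 adjusted p = 0.00589). MYB1 (Ebr04G001770) had no count in the 3 HN libraries and 0.294, 1.88 and 3.36 CPM in MN, at least 30.1-fold lower in HN against a floor of 3 counts over the group, and fell short of the filter for testing. The 53 O-methyltransferases had 0 called, 7 higher and 5 lower at an unadjusted p under 0.05, and 6 in each direction by DESeq2. A pair of genes outside the lists that share precursors with this pathway were called lower and singled out after their values were seen. They were cinnamoyl-CoA reductase 1 (Ebr04G064880), of lignin synthesis, with 22.8, 23.2 and 33.0 CPM in HN and 63.6, 61.6 and 105 CPM in MN, and 1-deoxy-D-xylulose-5-phosphate synthase 2 (Ebr04G038630), of plastid isoprenoid synthesis, with 18.7, 22.3 and 69.8 CPM in HN and 148, 382 and 219 CPM in MN.

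**Figure D4:**
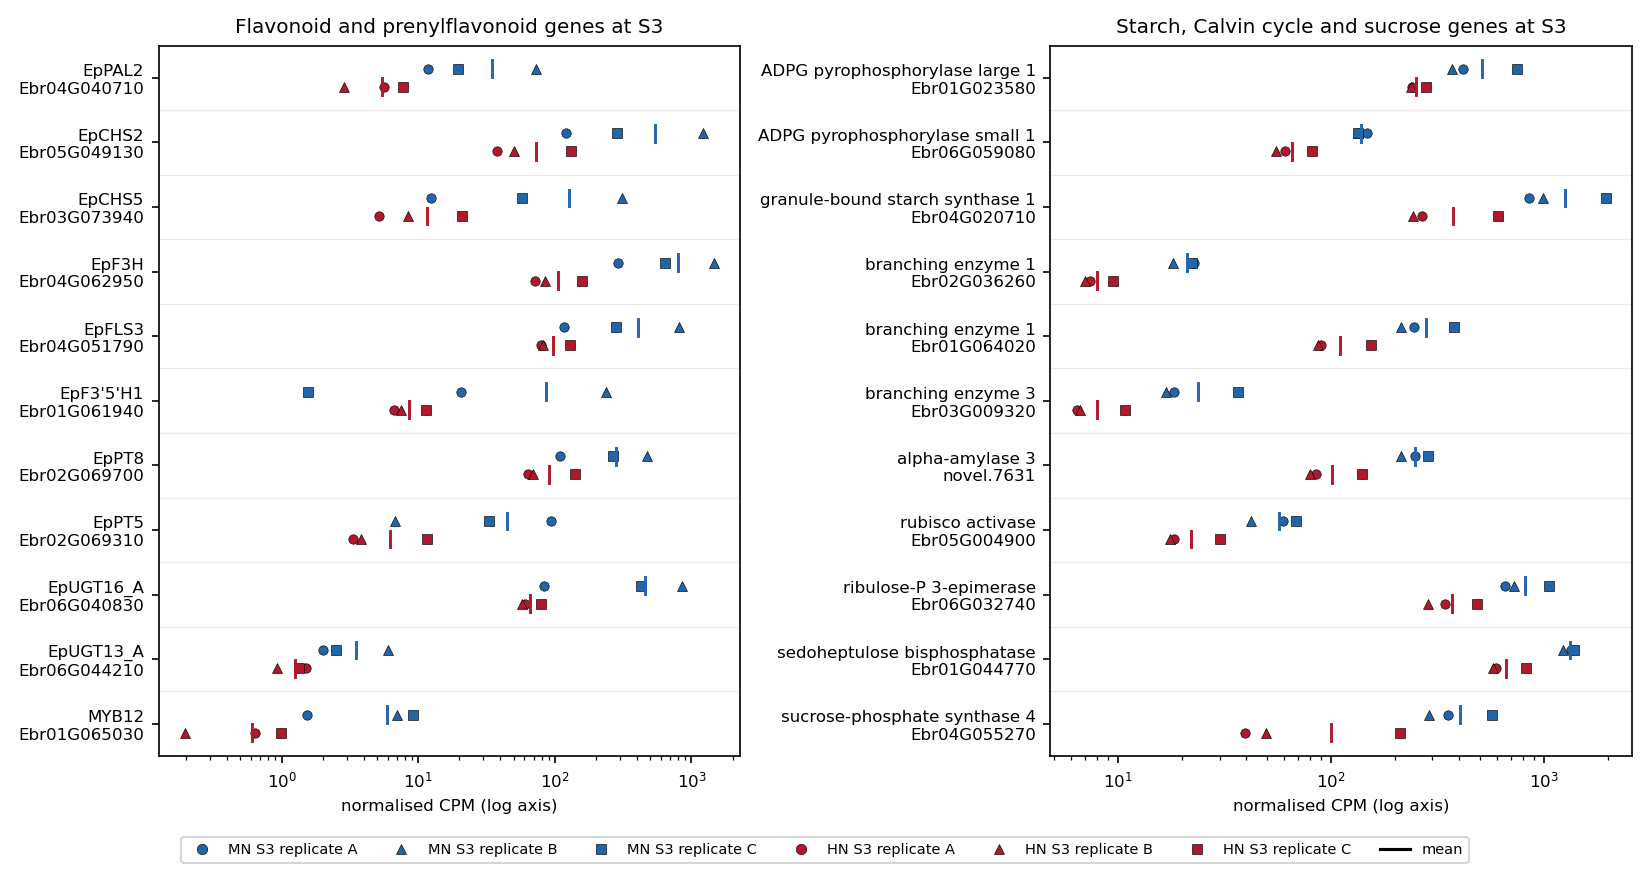
Normalised CPM (log axis) in each HN (red) and MN (blue) library at S3 for genes of the flavonoid pathway (left) and of starch, Calvin cycle and sucrose metabolism (right), with replicates by symbol and the group mean as a bar. In the flavonoid genes MN replicate B stands high, for example at 1211 CPM in EpCHS2 against 121 and 286 CPM, whereas in the 3 branching enzymes drawn every MN library lies above every HN library.

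In the NPF family, which carries nitrate and peptides, 1 of 61 tested genes was called higher and 2 lower, with a median of 0.28. At an unadjusted p under 0.05, 7 (11.5%) were higher and 6 (9.84%) lower, near the shares of all genes, and DESeq2 called 10 higher and 5 lower. NPF4.5 (Ebr01G016020) had 105, 107 and 38.1 CPM in HN and 13.0, 11.8 and 6.84 CPM in MN, a log2FC of 2.98 ± 0.67 (edgeR adjusted p = 0.0414). NPF2.13 (Ebr03G061500), a phloem nitrate carrier that moves nitrate out of older leaves in Arabidopsis, had 69.9, 86.8 and 136 CPM in HN and 634, 265 and 268 CPM in MN, a log2FC of -1.99 ± 0.44 (edgeR adjusted p = 0.0412). NPF5.6 (Ebr06G000410) fell less, with 9.11, 7.82 and 8.16 CPM in HN and 19.1, 14.0 and 25.98 CPM in MN.

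Of 11 high-affinity nitrate transport genes 1 was called, NRT2.7 (Ebr03G055670), a tonoplast carrier that loads nitrate into seeds in Arabidopsis. It had 7.04, 7.55 and 22.3 CPM in HN and 28.6, 71.3 and 223 CPM in MN, a log2FC of -3.13 ± 0.69 (edgeR adjusted p = 0.0412). The groups were apart but narrowly so between HN replicate C and MN replicate A, and the log2FC was -2.03 without MN replicate C, where the call was lost. A transporter matched to a peptide/nitrate carrier (Ebr06G024940) was also called lower at -3.29, with 1.10, 0.788 and 1.35 CPM in HN and 10.01, 7.39 and 14.4 CPM in MN, and was singled out after its values were seen.

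Of 22 genes of nitrogen assimilation 0 were called by edgeR. Those with an unadjusted p under 0.05 were 4 higher and 3 lower, and DESeq2 called 1 higher and 2 lower. Ferredoxin-dependent glutamate synthase (Ebr06G019690), of the chloroplast, had the smallest p, with 341, 311 and 487 CPM in HN and 799, 611 and 1021 CPM in MN (log2FC -1.09, edgeR adjusted p = 0.0523). The key enzymes of the pathway were singled out after their values were seen. Nitrate reductase (Ebr02G062930) had 19.3, 23.8 and 120 CPM in HN and 86.2, 110 and 46.7 CPM in MN, with groups that overlapped and a range within HN that exceeded the difference. Nitrite reductase (Ebr04G050620) had 107, 117 and 338 CPM in HN and 73.1, 68.4 and 89.6 CPM in MN (edgeR adjusted p = 0.196). Chloroplast glutamine synthetase (Ebr02G017870) had 593, 602 and 858 CPM in HN and 858, 736 and 1062 CPM in MN, which met at HN replicate C (edgeR adjusted p = 0.549). Asparagine synthetase (Ebr01G067880), which stores nitrogen as asparagine, had 421, 393 and 59.9 CPM in HN and 21.2, 7.86 and 7.32 CPM in MN. Its log2FC was 4.58 ± 1.56 with groups apart, and it was not called (edgeR adjusted p = 0.115).

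Among genes that release nitrogen from amides and amines, a probable amidase (Ebr04G062170) rose from 16.2, 20.9 and 7.98 CPM in MN to 118, 129 and 117 CPM in HN, a log2FC of 3.02 ± 0.61 (edgeR adjusted p = 0.0320). Primary amine oxidase (Ebr02G050230) rose too, with 286, 246 and 151 CPM in HN and 73.6, 64.7 and 37.9 CPM in MN (log2FC 1.95 ± 0.43), and was singled out after its values were seen. Among 72 amino acid transporters 2 were called lower, against 0.637% of all genes, and 0 higher. They were lysine histidine transporter 2 (an assembled locus, log2FC -1.83) and cationic amino acid transporter 7 (an assembled locus, -3.87). At an unadjusted p under 0.05, 8 (11.1%) were higher and 7 (9.72%) lower, near the shares of all genes. DESeq2 called 8 higher and 5 lower, and the median was 0.13.

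Aminoacyl-tRNA synthetases, which charge tRNAs for translation, had mostly lower values in HN. Of 86 tested 3 were called lower and 0 higher, 20 (23.3%) were lower and 1 higher at an unadjusted p under 0.05, and the median log2FC was -0.34. Of those 20 genes 17 were among the 41 enzymes matched to chloroplasts or mitochondria, whose median was -0.58, and 3 among the 45 others, with a median of -0.22. The 3 called genes were all organellar: valine (Ebr06G031570, with 24.9, 22.8 and 38.5 CPM in HN and 58.0, 43.1 and 92.2 CPM in MN), glutamate (Ebr02G075550, log2FC -1.28) and methionine (Ebr01G065640, under 5 CPM in every library, -3.42). Ribosomal protein genes moved little, with a median of -0.21 over 429 genes and 1 called, a ubiquitin-ribosomal L40 fusion (Ebr05G019360) that rose by a log2FC of 1.02.

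Autophagy genes had 2 of 23 called higher and 0 lower, with 5 (21.7%) higher and 0 lower at an unadjusted p under 0.05. Both called genes encode ATG8, the ubiquitin-like protein that coats the autophagosome. ATG8i (Ebr02G004040) had 139, 167 and 60.3 CPM in HN and 57.7, 37.2 and 27.4 CPM in MN, a log2FC of 1.58 ± 0.31 (edgeR adjusted p = 0.0320), although HN replicate C only just exceeded MN replicate A. ATG8f (Ebr04G014220) had 100, 107 and 66.9 CPM in HN and 54.1, 32.9 and 41.2 CPM in MN, a log2FC of 1.10 ± 0.24 (edgeR adjusted p = 0.0412).

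Of 81 heat shock proteins and chaperones 2 were called lower and 1 higher, with 5 higher and 11 lower at an unadjusted p under 0.05 and 7 higher and 3 lower by DESeq2. The organellar HSP90-5 (Ebr04G042910, chloroplast) and HSP90-6 (Ebr06G056860, mitochondrion) fell with log2FC of -2.26 and -1.47, and a cytosolic 17.9 kDa small heat shock protein (Ebr06G045010) rose from at most 0.294 CPM in MN to 8.94, 13.3 and 1.94 CPM in HN. The median of all members was -0.004. The antioxidant enzymes had 0 of 32 called, with 4 higher and 8 lower at an unadjusted p under 0.05 and 2 in each direction by DESeq2. Chloroplast glutathione reductase (Ebr04G056710) had an edgeR adjusted p of 0.0467 but a log2FC of -0.96. Of 46 glutathione S-transferases, which conjugate toxic compounds, GSTU17 (Ebr03G061100, log2FC -1.43) and GSTF13 (Ebr0G000330, -1.25) were called lower.

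Pathogenesis-related proteins lay higher in HN as a group, though none was called. Of 85 tested, 65 had a log2FC above 0, 29 (34.1%) were higher and 3 lower with an unadjusted edgeR p under 0.05. DESeq2 called 26 higher and 0 lower. The median log2FC was 1.395, with 1.16 to 1.93 over the edgeR alternatives. The filter can keep a member for its HN values alone, and 85 passed here against 60 for LN against MN. Thaumatin-like proteins (11 of 22 higher at an unadjusted p under 0.05, median 2.28) and chitinases (6 of 17, median 2.30), which act on fungal membranes and walls, were shifted most. Glucan endo-1,3-beta-glucosidases (11 of 35 higher and 3 lower, median 0.47), which also act in plant cell walls and plasmodesmata, were shifted less. The 11 other members had a median of 0.12, with 6 above and 5 below 0. A thaumatin-like gene (Ebr02G030540) had no count in MN and 3.69, 2.50 and 0.881 CPM in HN, at least 38.4-fold higher against a floor of 3 counts over the group (edgeR adjusted p = 0.0717). Of 460 receptor kinases 5 were called higher and 0 lower, with a median of 0.25. At an unadjusted p under 0.05, 50 (10.9%) were higher, near the share of all genes, and 27 (5.87%) lower, and DESeq2 called 31 higher and 19 lower. The called genes included Ebr01G069230, with 170, 163 and 134 CPM in HN and 47.3, 53.3 and 29.8 CPM in MN, Ebr03G065180 (log2FC 2.24) and an LRR receptor-like kinase (an assembled locus, 4.49). An assembled locus matched to cysteine proteinase inhibitor 8, a defence and senescence protein, was called higher with 179, 180 and 66.1 CPM in HN and 50.1, 48.4 and 50.5 CPM in MN.

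Calcium signalling genes had mostly higher values in HN. Of 76 sensors and kinases 59 had a log2FC above 0, 21 (27.6%) were higher and 2 lower at an unadjusted p under 0.05, and the median was 0.56, with 0.46 to 0.63 over the edgeR alternatives. Calmodulin (Ebr06G024930), the main calcium sensor, was called higher with 733, 803 and 356 CPM in HN and 274, 265 and 296 CPM in MN, a log2FC of 1.18 ± 0.29 (edgeR adjusted p = 0.0489). Calmodulin-interacting protein 111 (Ebr01G029830), an ATPase, was the 1 member called lower, at -1.47.

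Genes of cell wall growth and lignification had high medians but 0 called by edgeR. The 38 expansins and xyloglucan endotransglucosylases, which loosen walls, had a median log2FC of 1.27, with 12 (31.6%) higher and 1 lower at an unadjusted p under 0.05 and 11 higher and 0 lower by DESeq2. The 31 laccases, which polymerise lignin, had a median of 2.81, with 7 higher and 2 lower at an unadjusted p under 0.05 and 7 higher by DESeq2. The 56 class III peroxidases had a median of 1.23, with 9 higher and 2 lower at that level and 7 higher and 3 lower by DESeq2. The 24 arabinogalactan and wall structural proteins had 1.70, with 5 higher and 0 lower and 8 higher by DESeq2. In these lists MN replicate B lay apart from the other MN libraries on the side of HN, at 0.66 for the median expansin or xyloglucan gene relative to the MN mean, against -0.35 and -0.41 in MN replicates A and C. Without it the medians were 2.85 for the expansin list, 5.14 for laccases, 2.72 for peroxidases and 2.78 for wall structural proteins. The filter keeps a gene that passes in 1 group alone, so some members count toward these medians only because they were high in HN, or only in MN. Of the laccases 31 passed here, 34 at S2, 14 at S1 and 16 for LN against MN at S3. Many members were near 0 in MN: the laccase of smallest p (an assembled locus) had no count in MN and 5.65, 7.82 and 0.587 CPM in HN, at least 74.5-fold higher against the same floor, with an edgeR adjusted p of 0.108.

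Not every wall gene lay on the higher side. Among the laccases, the 9 genes matched to laccase-17 had a median of 4.01, with 8 above and 1 below 0. The 7 matched to laccase-5 had a median of -2.43, with 3 above and 4 below 0. Cellulose synthase-like H1 (Ebr06G053240) was called lower, with 8.60, 7.36 and 18.4 CPM in HN and 33.4, 30.7 and 33.8 CPM in MN, and the 53 cellulose synthase genes had a median of -0.44. Peroxidase 17 (Ebr04G039810) had the smallest p of the peroxidases on the lower side, with 7.33, 7.75 and 16.0 CPM in HN and 57.6, 23.8 and 96.2 CPM in MN (edgeR adjusted p = 0.0685). Cutin and wax genes had 1 of 136 called higher, against 0.527% of all genes, and a median of 0.68. At an unadjusted p under 0.05, 16 (11.8%) were higher and 6 (4.41%) lower, and DESeq2 called 21 higher and 5 lower. The called gene was a probable 1-acyl-sn-glycerol-3-phosphate acyltransferase (Ebr04G014190), an enzyme of glycerolipid synthesis. It had 28.1, 27.8 and 24.7 CPM in HN and 5.12, 9.95 and 6.18 CPM in MN.

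Aquaporins, the water channels, had 0 of 23 called, 7 (30.4%) higher and 0 lower at an unadjusted p under 0.05, 5 higher by DESeq2, and a median of 0.74. The 5 plasma membrane aquaporins all lay above 0 (0.12 to 2.66). PIP1-4 (Ebr01G059990) had 1123, 1169 and 723 CPM in HN and 480, 586 and 524 CPM in MN, with an edgeR adjusted p of 0.0481 and a log2FC of 0.92. PIP2-1 (Ebr06G006880), singled out after its values were seen, had 590, 553 and 183 CPM in HN and 70.4, 159 and 38.6 CPM in MN, with an edgeR adjusted p of 0.0511. By contrast the 49 sodium and potassium transport genes had 0 called, 0 higher and 2 lower at an unadjusted p under 0.05, a median of -0.002 and 1 called higher by DESeq2. The 28 abscisic acid and drought marker genes had 0 called, 1 higher and 1 lower at an unadjusted p under 0.05, and 1 in each direction by DESeq2.

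Among hormone genes, auxin response had 15 of 47 (31.9%) higher and 4 lower at an unadjusted p under 0.05, 15 higher and 3 lower by DESeq2, and a median of 0.88. The gibberellin list had 4 of 15 (26.7%) higher and 1 lower, 6 higher and 1 lower by DESeq2, and a median of 1.43 that was 0.44 without the filter on low counts. The repressor IAA9 (Ebr04G036550) was called higher, with 195, 190 and 180 CPM in HN and 67.6, 105 and 78.2 CPM in MN, a log2FC of 1.17 ± 0.26 (edgeR adjusted p = 0.0412). SAUR36 (Ebr04G058040), matched to a rice member of the small auxin up RNA family, was called lower, with 41.1, 43.7 and 63.5 CPM in HN and 162, 115 and 98.6 CPM in MN, although 16 of the 19 SAUR and similar genes had a log2FC above 0. The efflux carrier PIN5 (Ebr02G030890) fell from 22.4, 18.6 and 34.4 CPM in MN to 0.115, 0.788 and 4.23 CPM in HN, and the auxin synthesis gene YUCCA10 (Ebr01G034260), singled out after its values were seen, from 10.65, 24.9 and 16.4 CPM in MN to at most 0.705 CPM in HN. Cytochrome P450 90B1 (Ebr04G031400), the brassinosteroid synthesis enzyme DWF4, rose from 7.12, 17.5 and 4.74 CPM in MN to 98.9, 102 and 99.7 CPM in HN, a log2FC of 3.36 (edgeR adjusted p = 0.0481). The 6 gibberellin-regulated protein genes all lay above 0 (1.43 to 7.62) with none called. A NADPH-cytochrome P450 reductase locus (an assembled locus) had no count in MN and 8.08, 8.73 and 4.35 CPM in HN, at least 114-fold higher against the floor, and was called higher.

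In the transcription factor lists 1 of 111 MYB and 1 of 74 bHLH genes were called, both higher, against 0.527% of all genes called higher. They were MYB14 (Ebr03G025900, 31.2, 32.1 and 20.1 CPM in HN and 15.7, 11.8 and 8.94 CPM in MN) and bHLH62 (Ebr04G030350, 103, 95.9 and 48.8 CPM in HN and 12.2, 28.4 and 11.9 CPM in MN). The locus matched to MYB32, called lower as described above, was not in the MYB list, which was drawn from annotated factor families. NAC factors, which direct senescence and wall thickening, had 0 of 34 called, 8 (23.5%) higher and 1 lower at an unadjusted p under 0.05, 6 higher and 1 lower by DESeq2, and a median of 0.73. The 34 WRKY factors had 0 called, 4 higher and 0 lower at an unadjusted p under 0.05 and 4 higher by DESeq2, and WRKY12 (Ebr04G010310), a regulator of stem wall thickening in Arabidopsis, had 35.6, 36.6 and 14.8 CPM in HN and 4.83, 3.43 and 1.98 CPM in MN (edgeR adjusted p = 0.0731). The 118 AP2/ERF factors had 0 called, 3 higher and 10 lower at an unadjusted p under 0.05, and 2 higher and 3 lower by DESeq2. Histone H2AX (Ebr01G002570), which marks DNA breaks, was called higher with 8.77, 9.46 and 5.99 CPM in HN and 3.83, 2.22 and 1.86 CPM in MN.

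**Figure D5:**
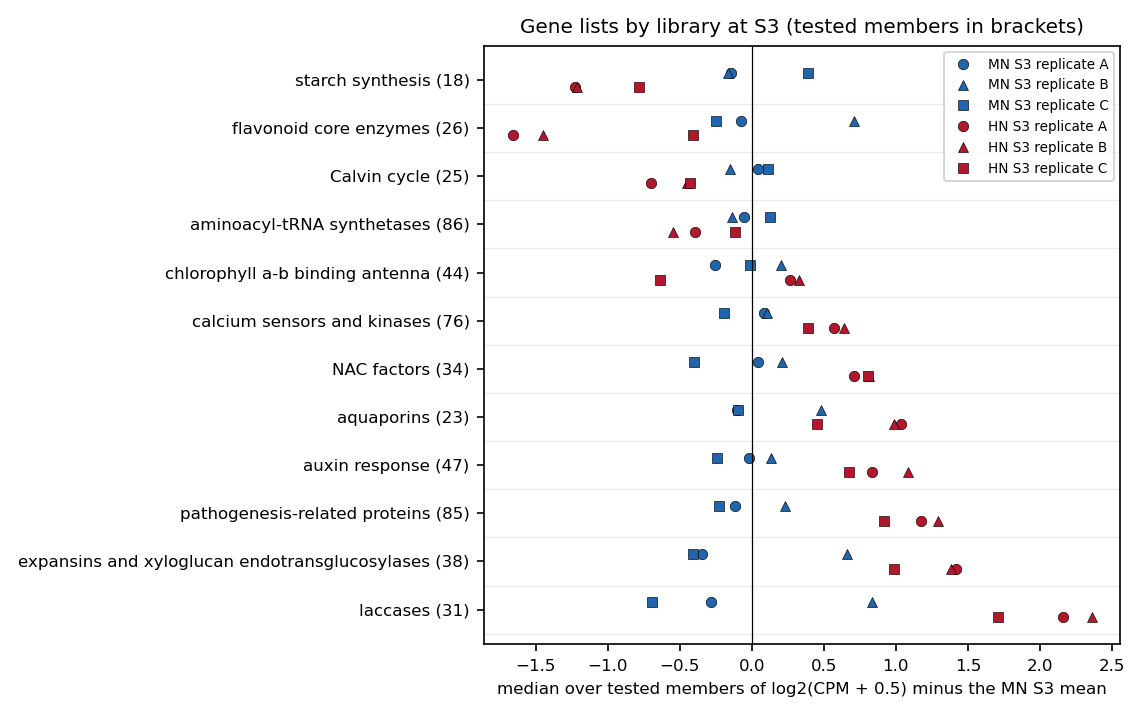
For 12 gene lists, each symbol is 1 library at S3 (HN red, MN blue), placed at the median over the tested members of log2(CPM + 0.5) minus the MN mean. The HN and MN libraries overlap in the aminoacyl-tRNA synthetase, chlorophyll a-b binding and aquaporin lists and lie apart in the other 9, and in the chlorophyll a-b binding list HN replicate C (-0.64) lies below and HN replicates A and B (0.27 and 0.32) above the MN libraries.

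Whether the HN effect at S3 differed from that at the earlier stages was tested as an interaction over the 27 libraries. Against S1, 33 of 25293 genes (0.13%) differed, 20 with a higher (0.0791%) and 13 with a lower (0.0514%) HN effect at S3, by edgeR at an adjusted p under 0.05. Against S2, 26 of 25337 genes (0.103%) differed, 3 higher (0.0118%) and 23 lower (0.0908%). HN against MN within S1 had 87 genes called (0.403%) and within S2 105 (0.471%). None of the 6 lists that follow had a member among the interaction genes, and their stage values are given side by side. Genes were filtered anew for each contrast, so the medians are not over the same members. Of the pathogenesis-related proteins 57 were tested at S1, 64 at S2 and 85 at S3. A member high only in HN at S3 can enter the S3 median alone. The median log2FC of starch synthesis was -0.03 at S1, -0.29 at S2 and -1.06 at S3. The flavonoid core had 0.38, -0.79 and -1.18, the pathogenesis-related proteins -0.12, 0.18 and 1.395, and the calcium sensors -0.14, 0.04 and 0.56. The Calvin cycle had 0.27, -0.84 and -0.60, and the expansin list 0.37, 1.51 and 1.27. When 1 library was left out of the edgeR fit, the interaction count against S1 was at most 438, without HN replicate C at S3, and it was 0 without HN replicate C or MN replicate B at S1, or without HN replicate A, HN replicate B or MN replicate C at S3, with 2873 to 3317 genes at an unadjusted p under 0.05.

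LN libraries of the same stage were read against the same MN libraries, so both contrasts share whatever those libraries hold, MN replicate B included. LN against MN had 1 gene called of 22048 (0.00454%). The log2FC of EpF3H was -2.80 for LN and -2.92 for HN, that of EpCHS2 -2.50 and -2.88, and that of EpFLS3 -2.22 and -2.06. The branching enzyme Ebr01G064020 had -0.23 for LN and -1.34 for HN, and the amidase Ebr04G062170 0.93 and 3.02. The median of starch synthesis was -0.24 for LN and -1.06 for HN, and that of pathogenesis-related proteins 0.04 and 1.395. The latter medians are over unlike sets, 60 genes for LN and 85 for HN, because each contrast had its own filter. The difference between the LN and HN effects was not tested.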

How the data were processed

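Leaf RNA from E. pubescens was sequenced by the authors, who made NEBNext libraries, aligned reads to the species' genome with HISAT2 2.0.5, assembled loci with StringTie 1.3.3b and counted reads per gene with featureCounts 1.5.0-p3. Strand setting, annotation version and build name were not given in the sources used here, so overlapping and antisense genes, and near-identical family members, may share reads. The deposited counts are raw reads per gene. The deposited FPKM values equal those counts scaled to gene length and library total, and served only as an alternative. Columns of protein matches gave the names of genes.

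HN and MN at S3 (3 libraries each) were compared with edgeR 4.0.16 in R 4.3.3 (TMM normalisation, quasi-likelihood F test), fitted over all 27 libraries, with genes kept by filterByExpr on the 6 libraries. Genes were called at a Benjamini-Hochberg adjusted p under 0.05 and a log2FC of at least 1 in size, the study's thresholds. It was known when this fit was chosen that a fit of the 6 libraries calls 0 genes. Interactions with stage used no fold threshold. Alternatives were DESeq2 1.42.0, limma 3.58.1 on log2(FPKM + 1) and log2(FPKM + 0.1), RLE normalisation, no filter, a replicate block, and leaving out each library. Summing close replicates was added after seeing the data. The fits were tested on simulated data.

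The 61 lists were drawn by keyword in the protein match or factor family. Named genes were the 10 called genes of smallest p in each direction with a protein match and groups apart, up to 3 called genes per list and direction, genes named in the study, the 3 of smallest p per direction in each interaction, and, in lists with none called, the member of smallest p. Comparison, lists and rules were chosen with earlier results of these data known. The 6 libraries held 14219119 to 17003783 counts each. Precision is limited by the spread between replicates (BCV 0.571 over the 27 libraries and 0.545 over the 6) more than by depth. Tables and figures used Python 3.11.15, pandas 2.3.3 and matplotlib 3.10.9.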

Additional observations from a re-analysis of the deposited data

Results flagged for a closer look

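With 3 libraries per group no library could be tested as an outlier of its group. The genes given here are those whose HN effect at S3 differed from that at an earlier stage by edgeR's interaction test. Against S1 the difference of log2FC was 2.07 for a mitochondrial acyl carrier protein (Ebr05G025670, adjusted p = 0.0229), 2.11 for peroxidase 51 (Ebr05G035520, adjusted p = 0.0229) and 2.90 for cysteine proteinase inhibitor 8 (an assembled locus, adjusted p = 0.0326). The acyl carrier protein and peroxidase 51 differed through S1, with HN means of 4.87 and 16.3 CPM against MN means of 20.9 and 63.5 CPM, and lay at 17.2 and 33.1 CPM in HN and 17.6 and 29.9 CPM in MN at S3. The proteinase inhibitor had 39.6 CPM in HN and 104 CPM in MN at S1, and 142 and 49.6 CPM at S3.

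In the other direction the difference was -1.65 for the DNA polymerase delta small subunit (an assembled locus, adjusted p = 0.0229), -2.61 for CHLOROPLAST IMPORT APPARATUS 2 (Ebr05G003590, adjusted p = 0.0326), a regulator of protein import into chloroplasts, and -3.49 for the IST1-like protein (Ebr04G058030, adjusted p = 0.0381). The polymerase subunit had means of 17.3 CPM in HN and 14.7 CPM in MN at S1 and 11.6 and 30.6 CPM at S3. CHLOROPLAST IMPORT APPARATUS 2 had 83.2 CPM in HN and 30.4 CPM in MN at S1 and 30.1 and 67.0 CPM at S3. None of these 6 differences passed an adjusted p of 0.05 in every alternative, and the highest adjusted p of each was between 0.608 and 0.805.

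Against S2 the aspartic proteinase CDR1 (Ebr04G018830) differed by 9.31 (adjusted p = 0.0377), with means of 2.55 CPM in HN and 6.77 CPM in MN at S2 and 84.4 and 0.348 CPM at S3. Threonine dehydratase 1 (an assembled locus, -10.17), aspartyl protease 37 (an assembled locus, -9.61) and tyrosine decarboxylase 2 (Ebr06G017830, -9.16) differed the other way because MN was at or near 0 at S2 (0.00, 0.00 and 0.0209 CPM on average) while HN had 5.96, 3.104 and 11.6 CPM. Their edgeR adjusted p-values were 0.00714, 0.00714 and 0.0192. These fitted differences depend on the prior count and bound nothing, and at S3 the 3 genes had 2.28, 3.22 and 3.00 CPM in HN and 3.59, 6.57 and 4.55 CPM in MN.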

How the results depend on the processing

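The count of called genes at S3 (263) was 0 with the 6 libraries alone (4583 genes at an unadjusted p under 0.05), 0 with 7 close pairs of replicates summed (an alternative chosen after seeing the data, with 2236 genes at an unadjusted p under 0.05), 35 with no filter on low counts, 513 with the replicate block, 942 and 1095 with limma on log2(FPKM + 0.1) and log2(FPKM + 1), 1523 with DESeq2 on 27 libraries and 2215 with DESeq2 on 6. Leaving out 1 library gave 0 to 1277. With the replicate block the interaction counts were 37 and 18. The count of called genes was 265 with RLE and 315 with no fold threshold. The interaction count against S1 (33) was 0 with its own libraries (3393 at an unadjusted p under 0.05), 0 with pairs summed (1542), 20 without the filter and 855 with DESeq2, and 0 to 438 leaving out 1 library. The count against S2 (26) was 1 with pairs summed and 1011 with DESeq2, and 4 to 168 leaving out 1 library. Same-letter correlations of deviations from the group means between HN and MN were 0.015 for A, 0.1 for B and 0.14 for C. Those of unlike letters ran from -0.136 to 0.131, the highest for HN replicate A with MN replicate B. With 3 libraries per group these values cannot decide whether replicate letters pair the libraries. No named gene that was called changed sign under any alternative, but the alternatives use the same libraries. All 77 of these genes lost their call with the 6 libraries alone and with pairs summed. The same held without HN replicate A, without HN replicate B and without MN replicate C at S3.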
